A study of Mus musculus with 7 samples.

Results

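Committed oligodendrocyte precursors and newly formed oligodendrocytes are the short-lived cells between the dividing oligodendrocyte precursor cell (OPC) and the myelinating oligodendrocyte. In single-cell RNA-seq of the mouse ventricular-subventricular zone (V-SVZ), they were taken as the kept cells with at least 3 unique molecular identifiers (UMIs, each marking 1 captured mRNA molecule) of Bmp4 and Enpp6 together, at least 1 of Gpr17 and Neu4 together, at most 1 of Pdgfra and at most 2 of Mog and Opalin together. Of 43346 kept cells in 7 libraries, 299 (0.69%) met this rule, and they are called committed cells here. The gate was set on measured counts, so the levels of its 7 genes, and every difference between these cells and other stages of the lineage, are given as description and carry no test.

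The 3 control libraries came from Prdm16flox/flox mice without Cre (the genotype is written Prdmflox/flox in the labels). The 3 cKO libraries came from hGFAP-Cre+/-; Prdm16flox/flox mice, and the 1 DKO library from hGFAP-Cre+/-; Prdm16flox/flox; Vcam1flox/flox mice, so that every group carried the floxed Prdm16 alleles. The human GFAP promoter of this transgene drives Cre recombinase in radial glia from embryonic life, and hence in the lineages that descend from them, which include part of the oligodendrocyte lineage. Each library pooled lateral-wall V-SVZ tissue of 2 to 3 mice at postnatal day 31 to 33. The question the groups address for these cells is whether loss of the transcriptional regulator Prdm16, alone or with the adhesion molecule Vcam1, altered their number or their transcriptome.

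The study's methods describe the pools as holding both sexes, and 3 libraries went against that description. Xist, the RNA that coats the inactive X chromosome of female cells, was detected in 0.311% of kept cells of control library 1, 0.589% of cKO library 2 and 0.406% of the DKO library, and in 39.7% to 63.1% in the other 4. The Y-linked gene Ddx3y was detected in 15.1% to 45.5% of kept cells in all 7 libraries. In committed cells Xist had 1, 285 and 762 UMIs in the control libraries, 571, 0 and 606 in the cKO libraries and 1 in the DKO library. Xist thus differed between libraries of the same genotype, its part in any result was not tested, and the shares, the counts of called genes and the list medians are also given below without those 3 libraries where they could be computed, an alternative added after the data were seen.

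An OPC that leaves the cell cycle loses its growth factor receptor Pdgfra, passes through a state that expresses the receptor Gpr17 and the secreted factor Bmp4, then turns on Enpp6, a choline phosphodiesterase, and finally the genes of compact myelin. The transcription factors Olig2 and Sox10 are kept throughout the lineage, Nkx2-2 and Tcf7l2 mark the onset of differentiation, and Myrf is required for the myelin programme. The V-SVZ, which lies beneath the corpus callosum and beside the striatum, produces new oligodendrocytes from its stem cells after birth.

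The promoters of 3 gate genes and of the long noncoding RNA gene 9630013A20Rik, one of the genes that set the committed cells apart most, are shown because they head the transcripts that define the cells. Each window runs from 250 bases before to 50 bases after the annotated start, from RefSeq on GRCm38.p6, 5′ to 3′ on the gene's own strand. Neu4 lies on the plus strand (chr1:94020243-94020542), Enpp6 on the plus strand (chr8:46986637-46986936), Bmp4 on the minus strand (chr14:46390620-46390919) and 9630013A20Rik on the minus strand (chr14:84476375-84476674). Capitals mark the SOX core ACAAT, the TCF/LEF motif TCAAAG and the E-box CAGCTG, each searched on both strands, and no match overlaps another in these windows.

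Bmp4: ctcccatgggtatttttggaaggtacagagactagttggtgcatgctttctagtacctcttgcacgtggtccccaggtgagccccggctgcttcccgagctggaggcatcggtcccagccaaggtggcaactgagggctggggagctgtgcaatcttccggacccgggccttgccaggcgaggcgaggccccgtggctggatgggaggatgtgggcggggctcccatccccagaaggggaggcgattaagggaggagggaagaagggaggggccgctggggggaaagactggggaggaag
Enpp6: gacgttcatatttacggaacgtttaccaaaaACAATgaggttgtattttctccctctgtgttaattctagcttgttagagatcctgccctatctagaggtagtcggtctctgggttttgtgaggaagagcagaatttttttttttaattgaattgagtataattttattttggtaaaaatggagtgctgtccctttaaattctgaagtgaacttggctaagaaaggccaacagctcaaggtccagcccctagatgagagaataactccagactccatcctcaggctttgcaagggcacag
Neu4: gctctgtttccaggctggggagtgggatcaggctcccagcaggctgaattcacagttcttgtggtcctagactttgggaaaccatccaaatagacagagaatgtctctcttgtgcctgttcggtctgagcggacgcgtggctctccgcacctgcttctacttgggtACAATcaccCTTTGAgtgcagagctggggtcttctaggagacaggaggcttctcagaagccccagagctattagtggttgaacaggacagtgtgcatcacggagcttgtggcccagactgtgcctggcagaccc
9630013A20Rik: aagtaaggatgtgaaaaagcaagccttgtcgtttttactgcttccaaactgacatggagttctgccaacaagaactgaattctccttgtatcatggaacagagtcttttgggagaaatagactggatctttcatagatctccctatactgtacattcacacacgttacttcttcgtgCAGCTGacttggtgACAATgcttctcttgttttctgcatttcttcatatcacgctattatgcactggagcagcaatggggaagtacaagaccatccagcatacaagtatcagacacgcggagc

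The Enpp6 and 9630013A20Rik windows held 1 SOX core each, the Neu4 window held 1 SOX core and 1 TCF/LEF motif, and the 9630013A20Rik window also held 1 E-box. No motif of the 3 was found in the Bmp4 window. Across 32851 promoter windows of the same length, 31% held the SOX core, 16.0% the TCF/LEF motif and 16.3% the E-box. Of the 20 genes described below as highest in committed cells, 14 had windows in the table, 25 in all, of which 8 held the SOX core, 1 the TCF/LEF motif and 3 the E-box. These matches are letters in a window and do not show binding.

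The committed cells numbered 68, 16 and 59 in control libraries 1, 2 and 3, 53, 16 and 40 in cKO libraries 1, 2 and 3, and 47 in the DKO library. Over all 299 the median was 13645 UMIs and 4381 genes per cell. Their median depth was 10777, 24540 and 16094 UMIs in the control libraries, 11591, 28566 and 12585.5 in the cKO libraries and 16996 in the DKO library. In every library this lay above the median of the OPC-gate cells (at least 3 UMIs of Pdgfra and Cspg4 together, at most 2 of Bmp4 and Enpp6 and at most 2 of Mog and Opalin), which ran from 5335 to 11655 UMIs. Mature-gate cells (defined below) were deeper than committed cells in 4 of 7 libraries, with medians of 8177 to 27805 UMIs. Summed over cells, the libraries gave 395429 to 988684 UMIs of committed cells, and control library 2 gave the fewest.

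Most committed cells expressed the whole gate rather than a part of it. Gpr17 was detected in 297 of 299 cells (median 23 UMIs), Enpp6 in 285 (median 15 UMIs), Bmp4 in 239 (median 10 UMIs) and Neu4 in 233 (median 5 UMIs), and 208 cells (69.6%) held all 4. Bmp4 and Enpp6 were both present in 225 cells, Enpp6 without Bmp4 in 60 and Bmp4 without Enpp6 in 14. At the edge of the gate, 17 cells entered with exactly 3 UMIs of Bmp4 and Enpp6, and 28 cells that met the other limits stayed out with 2. Of cells that met both lower limits, 50 had at least 2 UMIs of Pdgfra, and 427 others stayed out through at least 3 of Mog and Opalin. Another 2374 cells had enough Bmp4 and Enpp6 but no UMI of Gpr17 or Neu4, counted without regard to the limits on Pdgfra, Mog and Opalin. The plot of Bmp4 against Enpp6 shows the 60 cells without Bmp4 as a column of their own at the left edge.

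**Figure D1:**
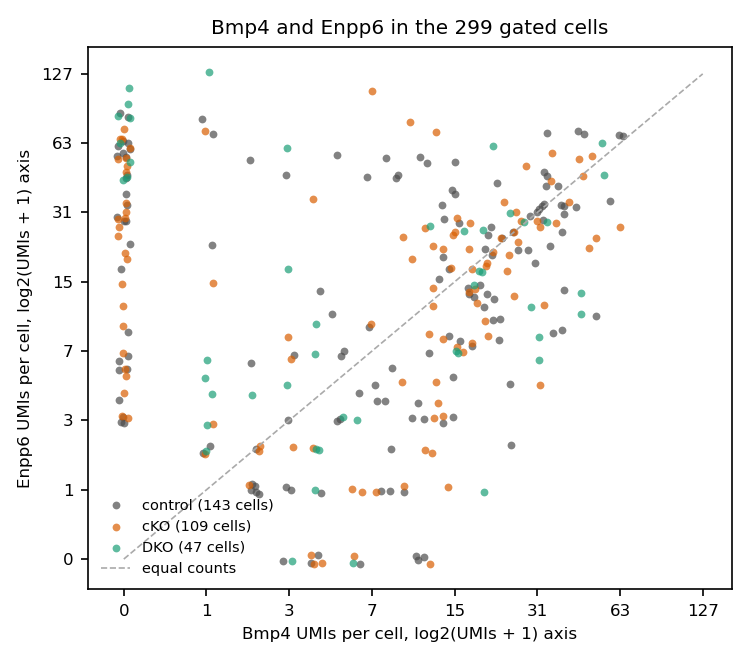
Each point is 1 of the 299 committed cells, placed by its UMIs of Bmp4 (horizontal) and Enpp6 (vertical) on log2(UMIs + 1) axes with a small random shift, and coloured by genotype (143 control, 109 cKO and 47 DKO cells). The dashed line marks equal counts, with 132 cells on the Bmp4 side and 158 on the Enpp6 side, and a column of 60 cells without Bmp4 stands at the left.

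Free RNA in the droplets was gauged in microglia, which should lack the gate genes. None of 731 microglia, defined by at least 5 UMIs of C1qa, C1qb and Csf1r and none of Pdgfra, Mog and Opalin, passed the gate. This allows a share of up to 0.41%, beside the 0.69% of kept cells that were committed cells. The definition left out microglia with free RNA of Pdgfra, Mog or Opalin, so free RNA may be underestimated here and in the microglia levels below. How far was not tested. Their median depth was 3670.5 to 6258 UMIs per library against 10777 to 28566 in committed cells, and shares were not thinned to 1 depth. In microglia a UMI of Bmp4 was seen in 0.41% of cells, of Enpp6 in 1.64%, of Gpr17 in 0.684% and of Neu4 in 0.137%, against 79.9%, 95.3%, 99.3% and 77.9% of committed cells. Myelin RNA was different, since a UMI of Mbp was found in 53.9% of microglia. Microglia levels are therefore given below where single myelin genes are compared between stages. Simulated doublets served as the reference for Scrublet, which marked 3 of the 299 committed cells, and 23 carried at least 3 UMIs of another cell type's markers. Another 10 barcodes met the gate but exceeded the limit of 7000 genes, 8 of them in control libraries 2 and 3.

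The 7 libraries held 45758003 to 141353017 UMIs in 65049 barcodes. Libraries of 1 genotype differed in gene totals far beyond counting noise, so none was a copy of another. They shared at most 70 kept barcodes in a pair, and 5 such matches involved a committed cell. The file headers name Cell Ranger 6.0.1 for control and cKO libraries 1 and 2 and 6.1.1 for the other 3, so the version differed within both replicated groups.

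The label of the cells was checked on genes that the gate did not use, although these were measured in the same cells and listed with earlier results known. Of 23 listed genes of committed and newly formed oligodendrocytes at 20 CPM or more (counts per 1000000 UMIs summed over the cells of a stage) in some stage, 21 were higher in committed cells than in both OPCs and mature-gate cells (at least 3 UMIs of Mog and Opalin, at most 2 of Bmp4 and Enpp6 and at most 1 of Pdgfra) in all 7 libraries. Over all 8739 genes at that level, 857 (9.81%) had this pattern. Bcas1, which encodes a protein of early myelinating oligodendrocytes, ran at 1800.4 to 2863 CPM (median 2301) in committed cells across the 7 libraries, 189 to 294 CPM (median 248) in OPCs and 193 to 294 CPM (median 252) in mature-gate cells. The committed range did not overlap either of the others, and it stood well above the 39.9 CPM of the highest microglia value.

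Other members of the list showed the same pattern. Fyn, a kinase that acts downstream of axonal adhesion in early myelination, ran at 2602 to 3131 CPM (median 2909) against 207 to 322 CPM (median 271) in OPCs and 55.7 to 76.5 CPM (median 73.1) in mature-gate cells. Itpr2, an inositol trisphosphate receptor of the endoplasmic reticulum, ran at 505 to 910.2 CPM (median 690.4) against 165 to 225 CPM (median 192) and 6.42 to 16.2 CPM (median 12.5). Tnr, the matrix glycoprotein tenascin-R, ran at 1339.5 to 2039 CPM (median 1482) against 679 to 1071 CPM (median 899) and 0.594 to 7.93 CPM (median 4.63). In each of the 3 the committed cells were above both stages in 7 of 7 libraries, and mature-gate cells were the lowest. Lpar1, a lysophosphatidic acid receptor, was the listed gene below its mature level, with 106 to 214 CPM (median 164) in committed cells, 0 to 15.1 CPM (median 10.0) in OPCs and 481 to 1056 CPM (median 853) in mature-gate cells. Casr was under 20 CPM everywhere, and Tmem2 was matched under its current symbol Cemip2.

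The 20 genes with the largest smaller ratio, that is the smaller of the log2 ratios over OPC-gate and over mature-gate cells, are described next, gate genes left out. The ranking used the OPC gate as it was set, which also held vascular cells (below). Ranked over the trimmed gate, 16 of the 20 remained, and Epb41l2, Cemip2, Rgs16 and Lrrc42 took the places of Mycl, D430041D05Rik, Barx2 and Tmem108. Epcam, an adhesion molecule best known from epithelia, led with 79.6 to 134 CPM (median 107) in committed cells against at most 0.715 CPM in OPCs and 0.598 CPM in mature-gate cells. Rassf10, a Ras-association domain protein, followed with 102 to 217 CPM (median 184) against at most 3.73 and 1.64 CPM. Both were at or near 0 in the other 2 stages, and no microglia library held a UMI of Rassf10. 9630013A20Rik ran at 859.8 to 1497 CPM (median 947) in committed cells, 3.13 to 19.4 CPM (median 9.44) in OPCs and 18 to 46.5 CPM (median 30.3) in mature-gate cells.

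Frmd4a, a scaffold of cell polarity, ran at 784 to 1740.2 CPM (median 1042) in committed cells and at most 33.6 CPM in OPCs, although microglia held 248 to 385 CPM (median 316). Gm36988, close behind Rassf10 in the order with 98.2 to 319 CPM (median 185), lies inside Frmd4a on the same strand (chr2:4316479-4318886), so reads could be assigned to either gene. Cnksr3, a scaffold of kinase signalling, ran at 183 to 406 CPM (median 277) in committed cells and at most 14.9 CPM in mature-gate cells. Rnd2, a small GTPase, ran at 644 to 1305 CPM (median 1101), 48 to 80.9 CPM (median 58.1) in OPCs and 24.6 to 37.7 CPM (median 26.3) in mature-gate cells. The other 13 were Itgb7, Kif19a, Fyn, Pik3r3, Sema4a, Mycl, Rras2, Dynll2, Barx2, Tcf7l2, D430041D05Rik, Tmem108 and Ust. For all 20 the committed cells were above both neighbouring stages in 7 of 7 libraries, as the plot of these genes shows.

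**Figure D2:**
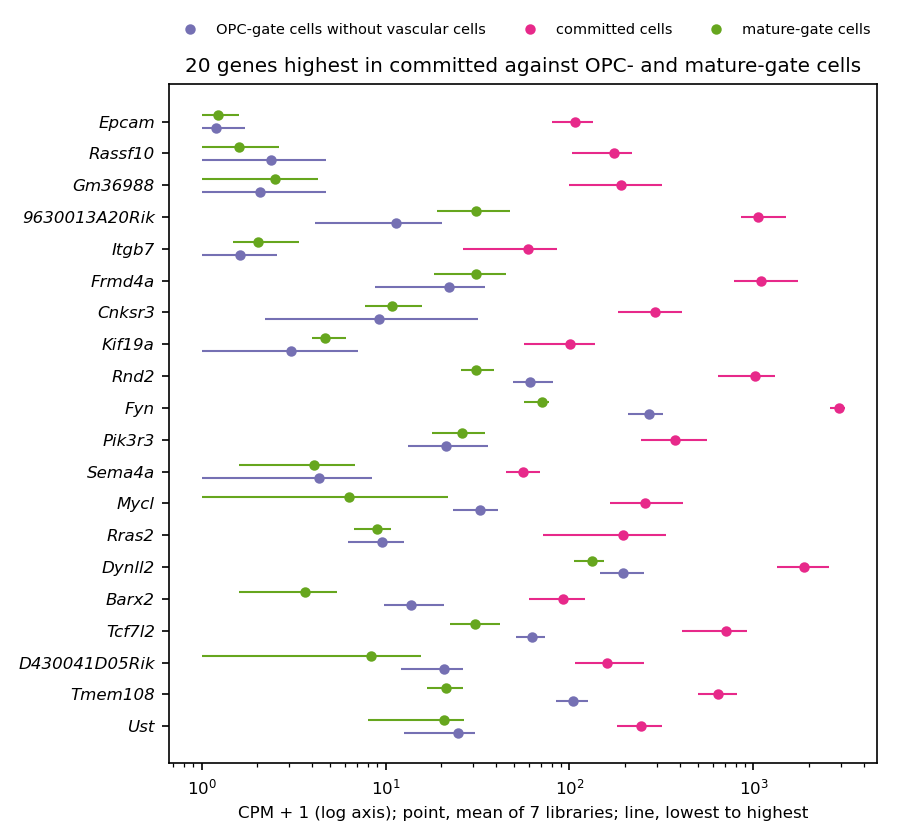
Levels of the 20 genes with the largest smaller ratio, in CPM + 1 on a log axis, in OPC-gate cells without vascular cells (violet), committed cells (pink) and mature-gate cells (green). Points are means of 7 libraries and lines run from the lowest to the highest library. For Epcam the committed cells ran from 79.6 to 134 CPM, and no pink line overlaps a green or violet line.

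The OPC gate was not pure. Of its 1429 cells, 614 carried at least 3 UMIs of the vascular genes Rgs5, Vtn, Pdgfrb, Col1a2 and Dcn (38.1% to 65.0% per library), and pericytes and fibroblasts are known to express Cspg4 or Pdgfra. Levels called OPC here therefore come from the 787 OPC-gate cells with fewer than 3 such UMIs and at least 2 of Olig1, Olig2 and Sox10, a trimming made after the values were seen. Per library these numbered 24 to 194 cells, the fewest in cKO library 2. Among committed cells 3 of 299 carried vascular UMIs, all of them in control libraries 1 and 3.

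Most OPC genes were intermediate in committed cells. Of 17 listed OPC genes at 20 CPM or more, 13 lay below OPCs and above mature-gate cells in all 7 libraries, against 563 of 8739 genes (6.44%) overall. One of the 13 is Cspg4, which the OPC gate itself used, and without it the count is 12 of 16. Ptprz1, a receptor phosphatase with a chondroitin sulfate form, ran at 3514 to 4929 CPM (median 4222) in OPCs, 524 to 850.3 CPM (median 662) in committed cells and 52.3 to 199 CPM (median 131) in mature-gate cells. C1ql1, a secreted C1q-like protein, ran at 736 to 1132 CPM (median 871), 139 to 339 CPM (median 230.1) and 0.357 to 3.74 CPM (median 1.17) in the same order. Cspg5, the proteoglycan neuroglycan C, had 2971 to 4472 CPM (median 3307) in OPCs and 12.6 to 102 CPM (median 49.1) in committed cells, above the 10.9 to 118 CPM (median 62.4) of microglia in 3 of 7 libraries. The proteoglycan core protein Vcan had 723 to 1104 CPM (median 825) in OPCs and 326 to 677 CPM (median 520.0) in committed cells.

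Few transcripts of dividing cells were left. Mki67, a marker of cycling cells, ran at 42.6 to 248 CPM (median 98.7) in OPCs and 0 to 27.7 CPM (median 6.07) in committed cells, and Top2a, which untangles DNA in mitosis, at 124 to 311 CPM (median 202) and 2.1 to 52.2 CPM (median 7.59). Summed over 33 cell cycle genes, committed cells held 298 to 664 CPM against 1467 to 2763 CPM in OPCs, with no overlap. Microglia themselves held Mki67 at 0 to 136 CPM (median 63.6). Of 28 cell cycle genes at 20 CPM or more, 4 were below both OPCs and mature-gate cells in all 7 libraries, against 7.24% of all 8739 genes. Another 1 was above both in all 7, against 9.81% of all genes. It was Cdkn1c, an inhibitor of cyclin-dependent kinases, at 37.9 to 96.5 CPM (median 50.3) against 15.5 to 51.5 CPM (median 29.8) and 6.53 to 17.6 CPM (median 12.5).

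Of 29 listed myelin genes at 20 CPM or more, 13 were above OPCs and below mature-gate cells in all 7 libraries, against 219 of 8739 genes (2.51%) overall. Mag, an adhesion molecule of the inner myelin membrane, ran at 9.4 to 58.5 CPM (median 40.9) in OPCs, 972 to 2241 CPM (median 1719.8) in committed cells and 3094 to 5279 CPM (median 3868) in mature-gate cells, with 36.3 to 93.5 CPM (median 62.4) in microglia. The OPC and microglia ranges of Mag overlapped, whereas every committed value lay above both. Cldn11, the tight junction protein of myelin, ran in the same order of stages at 19.4 to 70.5 CPM (median 49.8), 1111 to 3072 CPM (median 2278) and 3969 to 7102 CPM (median 4504). Microglia held a mean of 78.2 CPM of Cldn11.

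Some myelin genes had reached or passed the mature level. Mbp, the basic protein that compacts the myelin membrane, ran at 3667 to 7938 CPM (median 5321) in committed cells and 3913 to 6128 CPM (median 4406) in mature-gate cells, with overlapping ranges and the committed cells higher in 5 of 7 libraries. Gjc3, a connexin, ran at 648 to 942 CPM (median 677) against 256 to 534 CPM (median 479), and the tetraspanin Cd9 at 3278 to 5433 CPM (median 4541) against 947 to 1456 CPM (median 1191), both higher in committed cells in 7 of 7 libraries. Microglia held means of 461 CPM of Mbp, 4.94 CPM of Gjc3 and 847 CPM of Cd9. For each of these genes the committed cells were above microglia in 7 of 7 libraries.

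At the other end, 10 of the 29 listed genes at 20 CPM or more did not exceed the microglia level in more than 3 libraries. They were Mal, Ermn, Aspa, Gjb1, Trf, Apod, Ppp1r14a, Hapln2, Car2 and Anln. Microglia had a lower median depth than committed cells, so an equal count of free UMIs gives a higher CPM in microglia. How far this raised the microglia levels was not tested. Mal, a proteolipid of mature myelin, ran at 8843 to 14595 CPM (median 13678) in mature-gate cells but at 14.7 to 73.3 CPM (median 64.8) in committed cells, 15.5 to 105 CPM (median 75.9) in OPCs and 62 to 154 CPM (median 134) in microglia. Ermn, a cytoskeletal protein of late oligodendrocytes, ran at 980.1 to 2249 CPM (median 1745) in mature-gate cells, 12.6 to 35.6 CPM (median 22.6) in committed cells and 10.9 to 43.9 CPM (median 36.3) in microglia. Trf, which encodes transferrin, took another course than the other 9, at 86.2 to 176 CPM (median 126) in committed cells against 11.6 to 73.6 CPM (median 50.8) in OPCs, above them in 7 of 7 libraries, although microglia held 595 to 841 CPM (median 671). For the other 9, a level in committed cells above that of microglia in most libraries was not detected.

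The transcription factors of the lineage followed several courses. Sox10 was kept at 461 to 715 CPM (median 586) in committed cells, with 364 to 579.7 CPM (median 505) in OPCs and 197 to 336 CPM (median 259.8) in mature-gate cells, and Olig2 ran at 337 to 670.2 CPM (median 405) against 579 to 1258 CPM (median 821) in OPCs. The trimming of the OPC gate required UMIs of Olig1, Olig2 and Sox10, so their OPC levels are partly set by it, and over the untrimmed gate Sox10 ran at 128 to 314 CPM (median 258) and Olig2 at 206 to 686 CPM (median 385), the latter overlapping the committed cells. Myrf, which activates myelin genes, ran at 0 to 15.7 CPM (median 7.87) in OPCs, 194 to 345 CPM (median 264) in committed cells and 165 to 289 CPM (median 235) in mature-gate cells. The committed and mature-gate ranges of Myrf overlapped. Of 34 listed factors, 6 were above both stages in all 7 libraries, against 9.81% of all 8739 genes. They were Nkx2-2, Zfp488, Tcf7l2, Sox4, Hdac2 and Klf9.

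Tcf7l2, the Wnt pathway factor of differentiating oligodendrocytes, ran at 409.9 to 927 CPM (median 712) in committed cells against 50.4 to 72.2 CPM (median 63.5) in OPCs and 21.5 to 41 CPM (median 28.5) in mature-gate cells. Nkx2-2 ran at 196 to 305 CPM (median 215) against 77.2 to 128 CPM (median 90.0) and 17.2 to 30.9 CPM (median 21.3). Both had their highest values at the committed stage. On the other side, 7 factors were below both stages in all 7 libraries (Sox9, Hes5, Id2, Id4, Tcf4, Nfia and Nfib), against 633 of 8739 genes (7.24%) overall. Hes5, a Notch target, ran at 256 to 510.0 CPM (median 366) in OPCs and 0 to 20.2 CPM (median 10.1) in committed cells.

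Of 18 receptors, mediators and targets of the Wnt, BMP and Notch pathways at 20 CPM or more, 1 was above both stages in all 7 libraries, against 9.81% of all 8739 genes. It was Rbpj, the DNA-binding partner of Notch, at 86 to 151 CPM (median 107) against 48.5 to 68.9 CPM (median 65.9) and 53.3 to 74.4 CPM (median 67). Axin2, a feedback inhibitor and target of Wnt signalling, ran at 24.3 to 37.8 CPM (median 27.1) in committed cells, 31.3 to 54.2 CPM (median 35.8) in OPCs and 5.94 to 15.1 CPM (median 9.28) in mature-gate cells. Smad7, an inhibitor of TGF-beta and BMP signalling, ran at 36 to 62.2 CPM (median 48.9) in OPCs, 225 to 396 CPM (median 331) in committed cells and 285 to 542 CPM (median 498) in mature-gate cells, but also at 272 to 571 CPM (median 462) in microglia.

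Many genes of process outgrowth were highest at the committed stage. Of 27 at 20 CPM or more, 12 were above both stages in all 7 libraries, against 9.81% of all 8739 genes. They were Tubb2b, Tuba1a, Map1b, Marcks, Marcksl1, Cdc42, Rac1, Cfl1, Dpysl2, Sema5a, Plxnb3 and Rnd2. Map1b, a microtubule-associated protein of growing processes, ran at 1282 to 1919 CPM (median 1537) in committed cells against 61 to 159.7 CPM (median 101) in OPCs and 75.4 to 276 CPM (median 179.7) in mature-gate cells. Stmn1, which destabilises microtubules, was lower in committed cells than in both, at 50.5 to 206 CPM (median 125) against 259.5 to 747 CPM (median 383) and 1769.7 to 3116 CPM (median 2073).

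Cholesterol synthesis, which supplies the growing myelin membrane, was higher in committed cells than in OPCs throughout. Of 19 genes of the pathway at 20 CPM or more, 7 were above both stages in all 7 libraries (among them Acat2, Mvk, Mvd, Sqle and Lss), and all 19 were above OPCs in all 7. Of 74 nuclear oxidative phosphorylation genes, 17 were above both stages in all 7 libraries and 0 below both, while none of the 13 mitochondrially encoded genes showed either pattern. Over all 8739 genes, 9.81% were above both stages and 7.24% below both in all 7 libraries.

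The committed cells were divided by which of the 2 leading gate genes prevailed. In 132 cells Bmp4 had more UMIs than Enpp6 (Bmp4-leading), in 158 it had fewer (Enpp6-leading) and in 9 the counts were equal. The Bmp4-leading share was 44.1%, 50% and 45.8% in the control libraries, 39.6%, 37.5% and 50% in the cKO libraries and 42.6% in the DKO library, so the groups overlapped. Enpp6-leading cells had the higher median depth in every library except cKO 3, with 11483 to 34581 UMIs against 5781 to 19938 UMIs, so values are compared as CPM. The split uses 2 gate genes of the same cells and the comparison carries no test. Control library 2 gave 8 Bmp4-leading and 7 Enpp6-leading cells and cKO library 2 gave 6 and 9. These are under the 10 cells required for tested sums, and every count over all 7 libraries rests partly on them. Of 6674 genes at 20 CPM or more in committed cells, 699 (10.5%) were higher in Enpp6-leading cells and 950 (14.2%) in Bmp4-leading cells in all 7 libraries.

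OPC genes were mostly higher in Bmp4-leading cells. Of 13 listed OPC genes at 20 CPM or more, 10 were higher in them in all 7 libraries and 0 were lower. C1ql1 ran at 238 to 830.2 CPM (median 472) in Bmp4-leading cells and 65.1 to 121 CPM (median 92.5) in Enpp6-leading cells, and Sox5 at 68.2 to 196 CPM (median 118) and 4.16 to 62.2 CPM (median 21.6). Nkx2-2 belonged to this side too, with 333 to 571 CPM (median 381) against 91.5 to 191 CPM (median 130.1), as did Cd9, with 5449 to 8165 CPM (median 6421) against 1666 to 4192 CPM (median 3160). Gpr17, a gate gene, ran at 2257 to 3602 CPM (median 2757) against 894 to 1650.1 CPM (median 1098).

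Some genes were at or near 0 in Bmp4-leading and high in Enpp6-leading cells. Cemip2, a cell surface hyaluronidase and the gene with the largest ratio at 50 CPM or more, ran at 318 to 833 CPM (median 592) in Enpp6-leading and 0 to 11.4 CPM (median 0) in Bmp4-leading cells. The Ras-related GTPase Rras2 ran at 149 to 481 CPM (median 287) against 0 to 9.06 CPM (median 4.14). Cemip2 and Rras2 were low again in mature-gate cells (4.16 to 29.6 CPM (median 13.1) and 5.74 to 9.72 CPM (median 8.41)). Ddc, the aromatic amino acid decarboxylase, was among the 15 genes of largest ratio, at 158 to 296 CPM in Enpp6-leading cells and at most 16.6 CPM in Bmp4-leading cells.

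Myelin and lipid genes were mostly higher in Enpp6-leading cells. Of 23 myelin genes at 20 CPM or more, 15 were higher in Enpp6-leading cells in all 7 libraries and 1 (Cd9) was lower. Mag ran at 98.5 to 190.4 CPM (median 128) in Bmp4-leading and 1904 to 3547 CPM (median 2610.1) in Enpp6-leading cells, and Mbp at 948 to 1498 CPM (median 1039.6) and 6453 to 12089 CPM (median 7571). The microglia means were 64.5 CPM of Mag and 461 CPM of Mbp. Mal had 0 to 90.9 CPM (median 51.4) and 15.4 to 89 CPM (median 57.6), both medians below that of microglia. Of 19 cholesterol synthesis genes, 17 were higher in Enpp6-leading cells in all 7 libraries, and Hmgcs1, which makes HMG-CoA, ran at 519.5 to 1041 CPM (median 813) against 128 to 360.0 CPM (median 187). Summed over the list, Enpp6-leading cells held 3075 to 4898 CPM. Bmp4-leading cells held 875 to 1976 CPM, which overlaps the 934 to 1346 CPM of OPCs. Of the nuclear oxidative phosphorylation genes, 31 of 74 were higher in Bmp4-leading cells in all 7 libraries and 0 in Enpp6-leading cells.

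**Figure D3:**
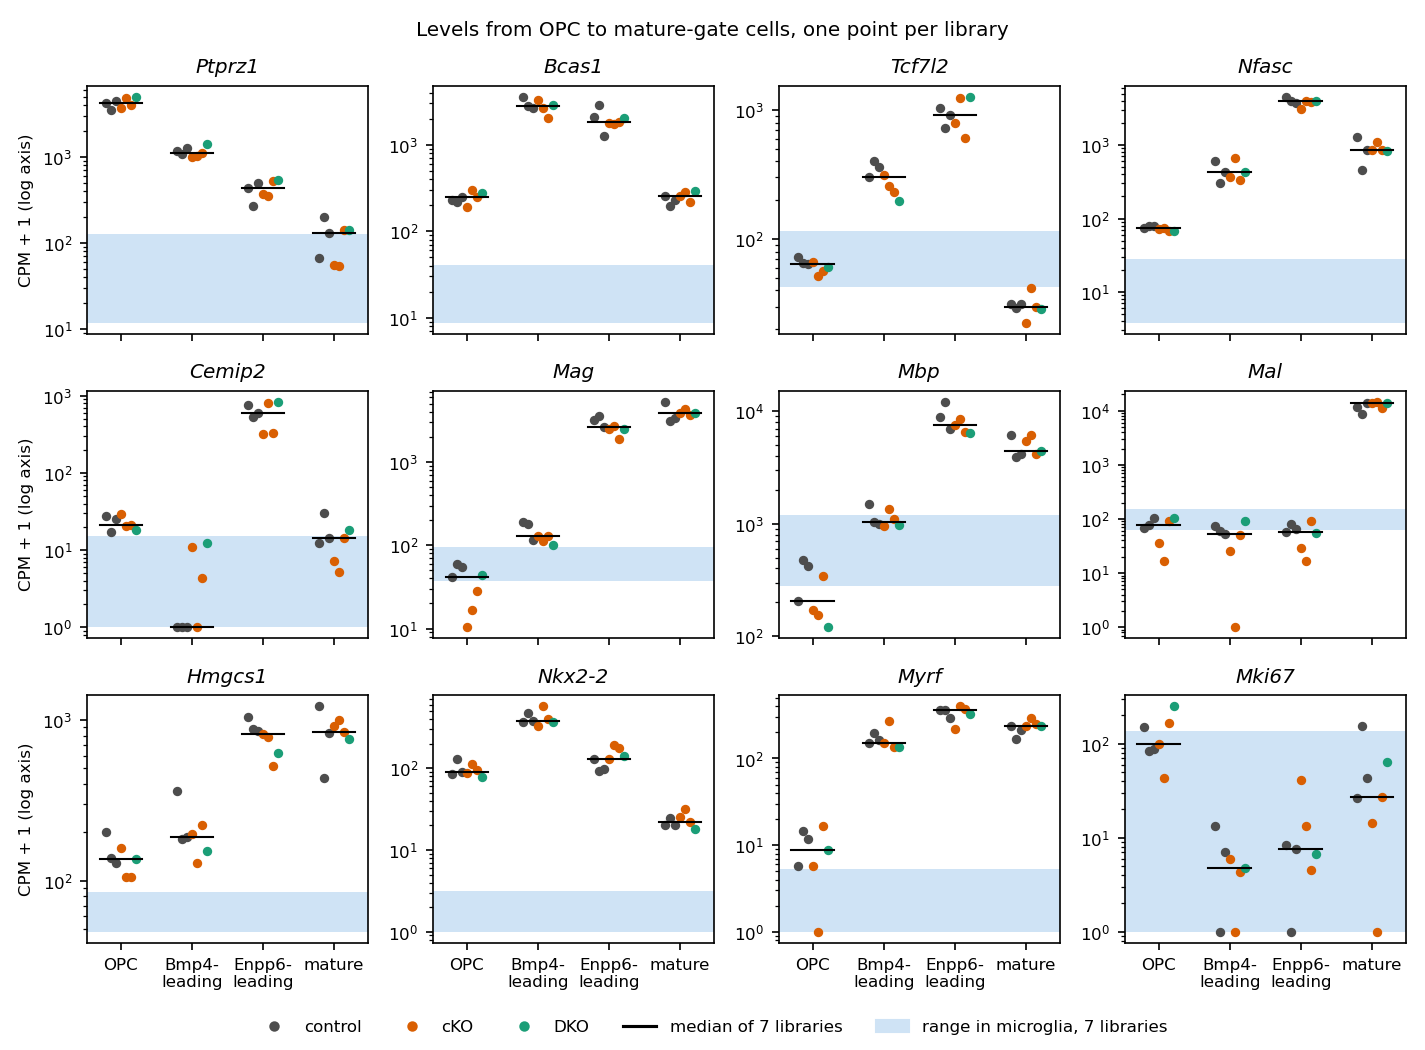
Levels of 12 genes in OPC-gate cells without vascular cells, Bmp4-leading committed cells, Enpp6-leading committed cells and mature-gate cells, as CPM + 1 on log axes. Each point is 1 library coloured by genotype, black bars are medians of the 7 libraries and the blue band spans the 7 libraries in microglia. Cemip2 peaks in Enpp6-leading cells (318 to 833 CPM), Mag is higher at each step by its median, and Mal exceeds the microglia band only in mature-gate cells.

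The share of committed cells did not separate the genotypes. Among kept cells it was 0.881%, 0.338% and 0.621% in the control libraries, 0.853%, 0.857% and 0.623% in the cKO libraries and 0.682% in the DKO library. The cKO values lay within the control range. The mean was 0.613% ± 0.272 in control (SD, n = 3) and 0.778% ± 0.134 in cKO (SD, n = 3), a difference of 0.164 percentage points (two-sided exact permutation test, p = 0.6, where 3 libraries against 3 cannot go below 0.1). That difference was 0.0266 points without control library 2 and 0.298 without control library 1. It was 0.307 at a limit of 5% mitochondrial counts and 0.454 with cells carrying another type's UMIs left out. Exact permutation p ran from 0.2 to 1 in these settings. Without control library 1, at an exact permutation p of 0.2, the lowest cKO share (0.623%) lay above the highest remaining control share (0.621%). In control library 2 the 16 cells give an exact 95% interval of 0.193% to 0.549%, for counting error only. With cells thinned to 3000 UMIs before gating, control library 2 held 27 committed cells, 0.917% of its cells with at least 3000 UMIs. Thinning also lowers counts of Pdgfra, Mog and Opalin, so cells above those upper limits at full depth could enter the thinned gate. The means were then 1.08% in control and 1.21% in cKO, a difference of 0.127 points (exact permutation p = 0.5). Without the 3 libraries low in Xist the difference was 0.259 percentage points, with both remaining cKO libraries (0.623% and 0.853%) above both control libraries (0.338% and 0.621%), where the exact permutation test of 2 against 2 cannot go below 0.333.

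Within the lineage, as a share of committed, OPC-gate and mature-gate cells together, committed cells made up 7.20%, 3.09% and 5.15% in the control libraries, 6.58%, 10.5% and 6.28% in the cKO libraries and 6.1% in the DKO library. The cKO mean was 7.77% ± 2.33 (SD, n = 3) and the control mean 5.15% ± 2.05 (SD, n = 3), with overlapping values (difference 2.62 percentage points, exact permutation p = 0.3). The high value of cKO library 2 rests on 16 committed cells beside 57 mature-gate cells. Without that library the difference was 1.28 percentage points (exact permutation p = 0.6), and with cells thinned to 3000 UMIs 1.06 (p = 0.5). It was larger without control library 1 (3.65 points, exact permutation p = 0.2) and at a limit of 5% mitochondrial counts (5.12, p = 0.3). With cells carrying another type's UMIs left out the difference was 5.67 points (exact permutation p = 0.2). Without the 3 libraries low in Xist it was 2.31 percentage points (exact permutation p = 0.333, the smallest possible). With the OPC gate trimmed of vascular cells the shares were 7.94%, 3.54% and 5.98% in control, 7.16%, 16.5% and 7.60% in cKO and 6.97% in DKO. A myelin-removing density step preceded capture, and fewer cells in the tissue cannot be told apart from fewer cells recovered.

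**Figure D4:**
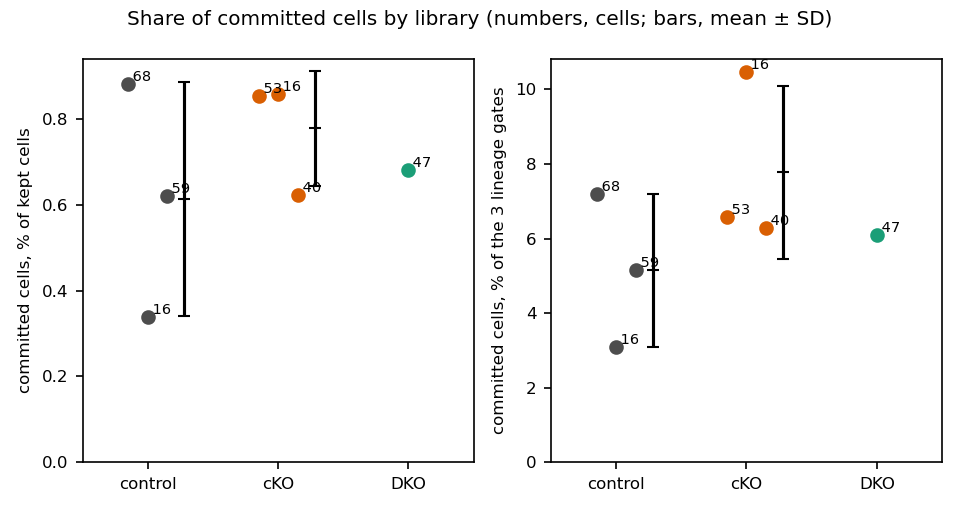
Committed cells as a percentage of kept cells (left) and of committed, OPC-gate and mature-gate cells together (right), with 1 point per library, the number of committed cells beside it and mean ± SD (n = 3) for control and cKO. The control points span 0.338% to 0.881% of kept cells and the cKO points, between 0.623% and 0.857%, fall inside that span.

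No gene passed the threshold between cKO and control committed cells in the unblocked fit of all libraries. UMIs were summed per library, and 8864 genes that passed edgeR's filter on low counts were compared by its quasi-likelihood test with Benjamini-Hochberg adjustment over all of them. At an adjusted p under 0.05, 0 genes were called (0%), 314 (3.54%) had an unadjusted p under 0.05, and DESeq2 also called 0, with 130 at an unadjusted p under 0.05. Every cKO library was above every control library for 241 genes (2.72%) and below for 573 (6.46%). Without the 3 libraries low in Xist, edgeR called 0 genes higher and 2 lower of 7502 tested (Gm10260 and H2-Ab1, a class II antigen presentation gene), and a block for Xist level in all 7 libraries left 0 called. Other settings gave calls. With Cell Ranger version as a block 2 genes were higher and 1 lower, and with no filter on low counts 3 higher and 12 lower. A replicate block gave 5 higher and 9 lower, and whether replicate numbers pair the libraries was not tested. Each library pools mice, and p-values measure the spread between these pools. In simulated counts the same fit recovered 105 of 200 genes with a log2 change of 1 (52.5%), so changes of that size could be missed.

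The targeted genes could not be followed in these cells. Prdm16 had 0, 0 and 1 UMIs in the control libraries, 0, 1 and 0 in the cKO libraries and 1 in the DKO library, and Vcam1 had 1, 0 and 2, then 1, 0 and 0, and 1. Both were at or under the floor of 3 counts in every library, so neither checks a label, and 3′ counting need not read the floxed part of a gene. Prm1, which encodes the sperm protein protamine 1, was listed as related to the transgene and not as a targeted gene. It had 0 UMIs in each control library, 3, 2 and 10 in the cKO libraries and 12 in the DKO library. Only the cKO and DKO libraries carried hGFAP-Cre, so reads from the transgene cannot be told apart from an effect of losing Prdm16. The counts of cKO libraries 1 and 2 were at or under the floor of 3. Microglia held Prm1 at 0 CPM in each control library, 20.7, 0 and 17.7 CPM in the cKO libraries and 8.55 CPM in the DKO library, against 4.89, 4.20, 16.9 and 15.1 CPM in the committed cells of the same 4 libraries, and the part of free RNA was not tested. OPC-gate cells held 0 UMIs of Prm1 in each control library, 46, 67 and 281 in the cKO libraries and 144 in the DKO library (41.5 to 119 CPM), and mature-gate cells 0 in each control library, 26, 9 and 209 in cKO and 147 in DKO. Summed over cKO the committed level was at least 6.46-fold higher against a floor of 3 counts over the control group, and Prm1 did not pass the test (unadjusted p = 0.0027, adjusted p = 1, edgeR), although it did with no filter on low counts (adjusted p = 0.0338). With 0 UMIs in control, Prm1 could pass the filter on low counts only through the cKO and DKO libraries. The sign of its difference is therefore no support for a direction.

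The genes named next, 10 in each direction, had the smallest unadjusted p among those whose mean log2 CPM reached 5 and whose cKO and control libraries did not overlap, and none passed the adjusted threshold (adjusted p of 0.622 to 1). Of these 20, Apbb2, Sparcl1, Malt1 and Meg3 were called with no filter on low counts (edgeR, adjusted p of 0.0118, 0.00432, 0.0181 and 0.0321) and with a replicate block (0.0252, 0.00902, 0.0191 and 0.0488), and Sparcl1 also without cKO library 3 (0.0147). On the lower side, Apbb2, an adaptor that binds the amyloid precursor protein, had 44.5, 63.2 and 85 CPM in the control libraries, 32.6, 16.8 and 18.6 CPM in the cKO libraries and 49.1 CPM in the DKO library. All cKO values were below all control values (log2 fold change -1.42 ± 0.33 (SE), n = 3 and 3, edgeR, unadjusted p = 0.00021), and the DKO value fell in the control range. Meg3, a long noncoding RNA abundant in neurons, had 89, 114 and 121 CPM in the control libraries, 53.8, 21 and 69.4 CPM in the cKO libraries and 136 CPM in the DKO library, so that the DKO value was the highest of all. Its log2 fold change of -1.06 turned to 1.51 with no upper limit on genes detected. Sparcl1, a secreted matrix protein made by astrocytes and vascular cells, had 73.7, 116 and 128 CPM in the control libraries, 32.6, 18.9 and 72.8 CPM in the cKO libraries and 103 CPM in the DKO library.

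The other 7 on the lower side had log2 fold changes of -1.23 to -0.79. They were the ubiquitin ligase gene Dtx3, Igfbp7 (a secreted protein of vessels), Zfp318, Malt1 (a protease of NF-kB signalling), Phip, Dstyk and Evl (an actin regulator of the Ena/VASP family). Zfp318 had 80.1, 75.9 and 81.9 CPM in the control libraries, 34.3, 44.2 and 50.8 CPM in the cKO libraries and 73 CPM in the DKO library.

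On the higher side, Capn7, a calpain protease, had 21.6, 27.8 and 20.2 CPM in the control libraries, 45.7, 46.3 and 40.7 CPM in the cKO libraries and 44 CPM in the DKO library. All cKO values and the DKO value were above all control values (log2 fold change 1.04 ± 0.30 (SE), n = 3 and 3, edgeR, unadjusted p = 0.0019). Ssbp1, a mitochondrial single-strand DNA binding protein, had 90.3, 73.3 and 101 CPM in the control libraries, 152, 139 and 137 CPM in the cKO libraries and 135 CPM in the DKO library. The other 8 were Zfp60, Nkain2, Hspb11, Txn1 (thioredoxin), Mrpl58 (a mitochondrial ribosome protein), Paip2b, Tceal8 and Camta1, with log2 fold changes of 0.61 to 0.97. Without the 3 libraries low in Xist the 20 genes kept their direction, at -1.53 to -0.58 and 0.52 to 0.98, a direction that their choice on these libraries fixed.

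**Figure D5:**
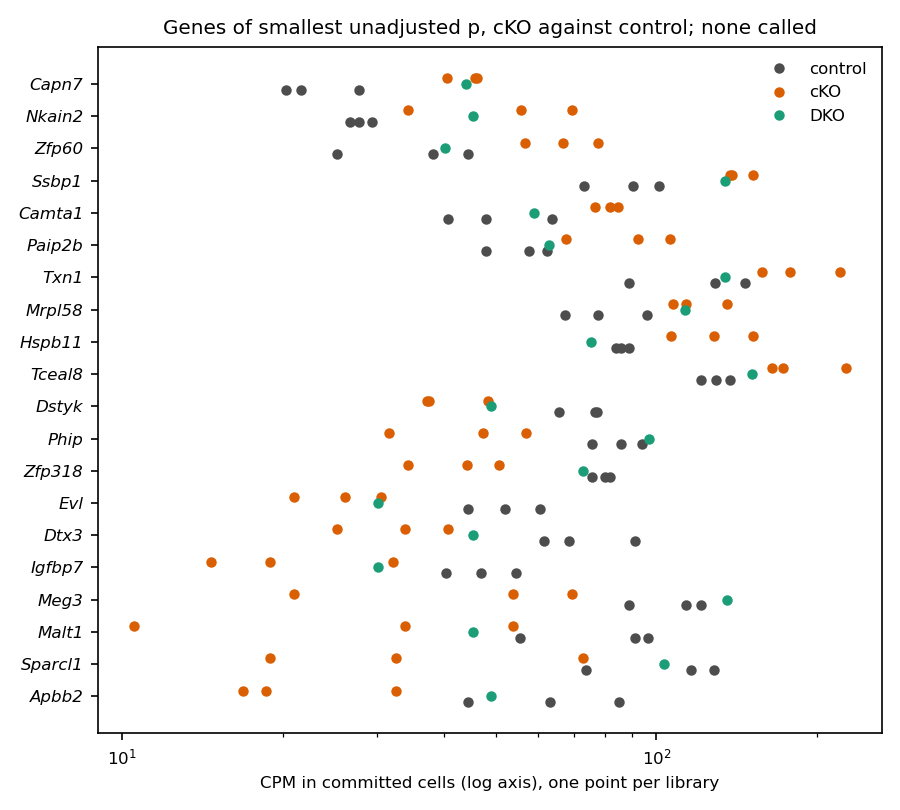
Levels in committed cells (CPM, log axis) of the 20 genes of smallest unadjusted p without overlap between groups, with 1 point per library for control (grey), cKO (orange) and DKO (green). The genes were chosen for this separation, none passed the adjusted threshold, and green points fall on either side, as for Meg3 (136 CPM, above every control point) and Capn7 (44.0 CPM, among the cKO points).

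The listed genes of the committed stage did not separate the genotypes. Of 23 tested genes of the committed and newly formed list, 8 were higher and 15 lower in cKO, 0 were called, and the median log2 fold change was -0.10 against 0.00 over all genes (-0.14 without the 3 libraries low in Xist, 0.02 without control library 1 and 0.04 without cKO library 3). Mycl, a MYC family factor and the list's most negative difference, had 411, 303 and 262 CPM in the control libraries, 237, 187 and 232 CPM in the cKO libraries and 165 CPM in the DKO library. It was the 1 member of 23 without overlap (log2 fold change -0.49, unadjusted p = 0.036, edgeR), against 9.18% of all genes. Prom1, a pentaspan membrane protein and the most positive difference, had 179, 116 and 136 CPM in the control libraries, 106, 301 and 188 CPM in the cKO libraries and 181 CPM in the DKO library, with overlapping groups. Bcas1 had 2535, 2863 and 1800.4 CPM in the control libraries, 2301, 1999 and 1931 CPM in the cKO libraries and 2301 CPM in the DKO library, again with overlap.

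Most myelin genes had negative differences, none of them called. Of 24 tested, 17 were lower and 7 higher in cKO, 3 lay below every control library (Tmem88b, Trf and Enpp2), against 573 of 8864 genes (6.46%), and the median log2 fold change was -0.17 (-0.32 without the 3 libraries low in Xist and -0.03 without cKO library 3). Of 15 OPC genes, 8 were higher and 7 lower, 0 without overlap, with a median of 0.01, and of 33 transcription factors 12 were higher and 21 lower with a median of -0.07. Those 2 medians were 0.04 and -0.05 without the 3 libraries low in Xist. At a mean log2 CPM of at least 5, log2 fold changes ran from Mal (-0.72) to Gsn (0.23) among myelin genes. Among OPC genes the extremes were Serpine2 (-0.42) and Cspg4 (0.46), and among factors Sox11 (-0.29) and Sox5 (0.43).

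Most nuclear oxidative phosphorylation genes had positive differences. Of 74 tested, 67 were higher and 7 lower in cKO, with a median log2 fold change of 0.30 against 0.00 over all genes, of which 50.3% were higher. The list's median was 0.08 without the 3 libraries low in Xist and 0.10 without control library 1 alone. That library was also the lowest of the 7 for the list's summed level in OPCs, mature-gate cells and microglia, at 15574, 11775 and 8527 CPM. No member was called, 5 had an unadjusted p under 0.05 (edgeR, against 3.54% of all genes), and 6 did not overlap between groups (5 above, against 2.72% of all genes, and 1 below, against 6.46%). Their summed level was 16922, 26121 and 24822 CPM in control, 22231, 27343 and 30083 CPM in cKO and 22994 CPM in DKO. These sums overlap between the groups. Mitochondrially encoded genes had a median of 0.29 (12 of 13 higher, 0.25 without the 3 libraries low in Xist), from -0.11 for mt-Nd4 to 1.09 for mt-Atp8. No mitochondrially encoded gene was called in that fit, but mt-Atp8 was with no filter on low counts (edgeR, adjusted p = 0.0184), a replicate block (0.00248) and without control library 3 (0.00236).

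Other lists gave small or mixed differences, with 0 members called. Cholesterol synthesis genes had a median of -0.15 (16 of 20 lower, from Dhcr7 at -0.58 to Pmvk at 0.43). Process outgrowth genes had a median of -0.03 and Wnt, BMP and Notch genes of -0.03, the latter with 3 of 17 tested members (Nkd1, Hey1 and Znrf3) below every control library, against 6.46% of all genes. Cell cycle genes, at very low levels, had a median of 0.27, and cell death and p53 genes of -0.09. Immediate early and heat shock genes had a median of -0.26, with 3 of 21 tested members (Jun, Jund and Fosb) below every control library, against the same 6.46%, and Hspe1, a mitochondrial chaperonin, the most positive (0.56). With the 3 libraries low in Xist left out, the medians were -0.19 for cholesterol synthesis, -0.07 for process outgrowth, -0.07 for Wnt, BMP and Notch, 0.44 for cell cycle, -0.01 for cell death and p53 and -0.24 for immediate early and heat shock genes. Leaving out 1 library turned the sign of 4 of these medians, cholesterol synthesis to 0.02 without cKO library 3, cell cycle to -0.57 without cKO library 1, Wnt, BMP and Notch to 0.06 without control library 3 and process outgrowth to 0.05 without control library 1 and 0.07 without cKO library 3.

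Of 13 endothelial and mural markers 6 were tested and 0 were called in the unblocked fit of all libraries. All 6 were lower in cKO (median log2 fold change -1.06), and 2, Rgs5 and Vtn, lay below every control library, against 6.46% of all genes. Rgs5, a pericyte gene, had 28, 5.06 and 35.4 CPM in the control libraries, 0, 0 and 0 CPM in the cKO libraries and 3.77 CPM in the DKO library, and the control sum was at least 15.2-fold higher against a floor of 3 counts over the cKO group (unadjusted p = 1.8e-05, adjusted p = 0.163, edgeR). Rgs5 was called with no filter on low counts (adjusted p = 3.67e-07), a replicate block (0.000245), a block for Cell Ranger version (0.0364) and without control library 2 (0.0033, edgeR). Vtn, also made by pericytes, had 73.7, 5.06 and 36.4 CPM in the control libraries, 3.26, 2.1 and 3.39 CPM in the cKO libraries and 2.52 CPM in the DKO library. Vtn was called with no filter on low counts (adjusted p = 7.03e-08), a replicate block (9.94e-06) and without control library 2 (0.000574, edgeR). Both genes passed the filter on low counts only through the control libraries, so the sign of their difference is no support for a direction of the list. The 3 committed cells with vascular UMIs were all in control libraries. With the 23 cells that carried another type's UMIs left out, neither gene passed the filter on low counts. Summed over 13 endothelial and mural markers, committed cells held 68.3 to 355 CPM in control and 61 to 244 CPM in cKO, which overlap, and none of the 13 was at 0 in every library. The part of such cells in Igfbp7 and Sparcl1 was not tested.

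The remaining marker lists were low. Astrocyte and neural stem cell markers summed to 473 to 823 CPM in control and 387 to 542 CPM in cKO, with the transporter Slc1a2 and Aldoc, 2 of 8 tested against 6.46% of all genes, below every control library in cKO (Slc1a2 log2 fold change -1.14, unadjusted p = 0.013, edgeR, and adjusted p = 0.0223 with no filter on low counts). Neuroblast and neuron markers summed to 186 to 255 and 52.6 to 196 CPM, ependymal markers to 8.9 to 80.9 and 24.5 to 86.4 CPM, and microglia and blood markers to 92.8 to 195 and 71.5 to 225 CPM. Over the tested members, astrocyte and neural stem cell markers had 6 of 8 lower with a median log2 fold change of -0.69, neuroblast and neuron markers 6 of 8 lower (-1.01), ependymal markers 1 of 3 lower (0.19) and microglia and blood markers 4 of 6 lower (-0.34). Without the 3 libraries low in Xist the neuroblast and neuron median turned to 0.40 and the astrocyte and neural stem cell median was -0.87, while the other 2 lists kept under 3 tested members. No member was called in this fit, low members could pass the filter through 1 group alone, so these medians support no direction, and the part of such cells in the results was not tested. The 6 sex-linked genes summed to 258 CPM in control library 1, 252 in cKO library 2 and 240.3 in the DKO library, against 880.1 to 1286 CPM in the other 4, as Xist did.

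The DKO library, with 47 committed cells and no replicate, carries no test. It lay inside the span of the other libraries for the share of kept cells (0.682%) and for Bcas1. Mycl was lower in it than in any other library, at 165 CPM. Of the 20 genes named above, its value was among or beyond the cKO values for 6 (Capn7, Nkain2, Mrpl58, Igfbp7, Malt1 and Evl), among or beyond the control values for 8 (Apbb2, Meg3, Phip, Sparcl1, Zfp60, Hspb11, Txn1 and Camta1) and between the groups for the other 6.

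Whether the genotype acted differently in committed cells than in the neighbouring stages was tested as an interaction over the library sums. Against OPC-gate cells (as gated, vascular cells included) 0 of 12316 genes were called (0%), with 529 (4.3%) at an unadjusted p under 0.05, and DESeq2 called 0 (97 at an unadjusted p under 0.05). Against mature-gate cells 0 of 11947 were called (0%), with 650 (5.44%) at an unadjusted p under 0.05, and DESeq2 again called 0 (349 at an unadjusted p under 0.05). Calls depended on the settings. With no filter on low counts 3 genes were called higher and 15 lower against OPC-gate cells and 33 higher and 12 lower against mature-gate cells, and with doublets left out 0 higher and 1 lower against OPC-gate cells (edgeR). With the 3 libraries low in Xist left out, 4 genes were called higher (Ccnd1, Cx3cr1, Socs3 and Gadd45g) and 4 lower (Rgs5, Sparcl1, Phlda1 and Pdgfrb) of 11435 against OPC-gate cells, and 0 of 12807 against mature-gate cells (edgeR).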

How the data were processed

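Committed cells and the gene lists were chosen with earlier results of these data known. For each of 7 libraries the authors deposited raw UMI counts per gene and barcode, made by Cell Ranger on GRCm38 (version 6.0.1 or 6.1.1 in the file headers, 6.1.1 in the submitters' processing notes). Cells with 500 to 7000 genes and at most 10% mitochondrial counts were kept. Counts of gated cells were summed per library (at least 10 cells), and CPM are counts per 1000000 UMIs of the sum. Sums were compared in edgeR 4.0.16 (filterByExpr, TMM, quasi-likelihood, 1 fit of all groups) at an adjusted p under 0.05, checked on simulated counts, with DESeq2 1.42.0 as an alternative. Shares were compared by exact permutation in scipy 1.17.1. Scrublet (scanpy 1.11.5) scored doublets, which were kept. Its threshold failed in control library 1, where the median of the others was used. Ratios of stages add 1 CPM. Named genes were Prdm16, Vcam1, Prm1, the 20 stage genes of at least 50 CPM, the 10 of smallest p per direction without overlap and the extremes of each list. Genes were followed by identifier, and 99.8% of 32285 were in GENCODE vM21. Intervals and floors (3 counts) cover counting error only.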

Additional observations from a re-analysis of the deposited data

How the results depend on the processing

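The finding of 0 called genes in committed cells was kept with DESeq2, a limit of 5% mitochondrial counts, doublets, the DKO library or cells with other types' UMIs left out, a stricter gate, thinned cells or sums, and without the abundant RNAs, and also with no upper limit on genes detected, an alternative added after the data were seen. With no filter on low counts 3 genes were called higher and 12 lower, and a block for Cell Ranger version gave 2 higher and 1 lower. Leaving out 1 library at a time gave 0 to 1 higher and 0 to 4 lower (3 lower without control 2, 1 higher without control 3, and 1 higher and 4 lower without cKO 3). Deviations of same-numbered libraries correlated at 0.221, -0.0172 and 0.322, and those of differently numbered libraries at -0.312 to 0.0943. Whether replicate numbers pair the libraries was not tested. Without the 3 libraries low in Xist (control 1, cKO 2 and DKO), added after the data were seen, 0 genes were called higher and 2 lower, and for the interaction with OPC-gate cells 4 higher and 4 lower. A fit with a replicate block called 5 genes higher and 9 lower. Genes called under more than 1 of these settings were Rgs5, Vtn, Cxcl12, H2-Ab1, Sparcl1, Selenop, Apbb2, Malt1, Meg3, Lars2, mt-Atp8 and Tulp3. For the interaction with OPC-gate cells, no filter gave 3 higher and 15 lower, leaving out doublets 0 higher and 1 lower, and leaving out a library 0 to 5 higher and 0 to 14 lower. For the interaction with mature-gate cells, no filter gave 33 higher and 12 lower, and leaving out a library 0 to 1 higher and 0 lower. Both shares kept their sign in all alternatives, with differences of 0.0266 to 0.454 percentage points of kept cells and 1.06 to 5.67 of lineage cells. No exact permutation p was under 0.2, but leaving out libraries raises the smallest p the test can give. Without control 1 (exact permutation p = 0.2) every cKO library lay above both remaining control libraries in both shares. Without control 2 the difference in kept cells was 0.0266 points. Meg3 turned to a log2 fold change of 1.51 with no upper limit on genes detected. Why calls appeared under some settings was not tested. The 16 committed cells each in control 2 and cKO 2 limit every genotype value.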
